A study of Danio rerio with 4 samples.

Results

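The genes described here are 10 zebrafish genes that are known, mostly from mammals, as transcriptional targets of the tumour suppressor p53. They were chosen by symbol: cdkn1a, sesn1, sesn3 and phlda3, which restrain cell division or growth; mdm2, ccng1, zmat3 and rps27l, which act back on p53 or on RNA and protein handling around it; and bbc3 and tp53inp1, which act in cell death. Of these, 9 had a row among the 32379 Ensembl genes counted, and all 9 had reads in every library and were tested. The identifier that the symbol table pairs with rps27l has no row, and that gene was not analysed here.

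RNA came from whole zebrafish embryos of the AB strain, lysed at 48 hours post fertilization, and was sequenced as 2 libraries per group. Each embryo had received 3 ng of a morpholino at the 1-cell stage. A morpholino is a synthetic antisense strand that covers a splice site or start codon of an RNA. One group was given a control morpholino and the other the morpholino sMOsrsf5a, directed against srsf5a, a gene for a serine/arginine-rich splicing factor. All libraries therefore came from injected embryos, 80 embryos were used per condition, and the labels leave unsaid whether both libraries of a condition share 1 pool, so p-values here speak of library-to-library spread, which may be technical.

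The protein p53 is a transcription factor that is held at a low level by the ubiquitin ligase Mdm2. After DNA damage or other stress it accumulates and switches on genes that stop the cell cycle, genes that shut p53 off again and genes that promote apoptosis. Because mdm2 is itself a target, the pathway contains a negative feedback loop. In zebrafish embryos, activation of p53 is a known side effect of some morpholinos, and cdkn1a and mdm2 are among its usual readouts. The series title asks about RNA targets that morpholinos hit inadvertently, and the comparison made here is the level of these genes under either morpholino.

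Libraries held 15139525 to 36240893 reads assigned to genes, the deepest and the shallowest being the 2 controls. The targeted gene srsf5a (ENSDARG00000029818) stood at 335 and 286 CPM (reads scaled to the size of the library) in control replicates 1 and 2 and at 335 and 368 CPM under the srsf5a morpholino, so the groups overlapped in part and gene counts gave no check of the labels. A splice-blocking oligomer need not change the total count of its target. Marker genes of 7 tissues, 27 rows in all, had reads in every library. The markers mylpfa, hbbe1.1, mpx, mpeg1.1 and apoa1b were also sought and had no row. Some rows, such as those of STMN1 and SLC4A1, were matched through capital symbols without the paralog letter. They can include a paralog other than the one sought. Their summed levels were 1442 to 1483 CPM in controls and 1113 to 1153 CPM under the srsf5a morpholino for neurons, 13006 to 14065 and 14160 to 14756 for skeletal muscle, 495 to 546 and 365 to 387 for red cells, and 23632 to 27190 and 23694 to 25714 for epidermis. The same sums were 1180 to 1390 and 1696 to 1764 CPM for lens, 62.1 to 71.6 and 80.8 to 92.7 for macrophages and neutrophils, and 989 to 1276 and 492 to 610 for liver and yolk layer. Markers within a sum did not all move alike. Log2 fold changes under the srsf5a morpholino were 0.57 for lyz, -0.26 for LCP1 and -0.23 for CORO1A. For skeletal muscle the ACTA1 genes had 1.08 and 0.33, ckma -0.08 and myhz2 -0.14. The liver and yolk layer sum was almost all tfa, at 988 and 1275 CPM in control libraries, where fabp10a had 1.07 and 0.572 CPM. Of the 27 rows edgeR called none higher and GAD2, tfa and 1 SLC4A1 gene lower, with 12 at an unadjusted p under 0.05. DESeq2 called 11 and gave no adjusted p for fabp10a. Over all tested genes edgeR called 1.98%, 20.6% had an unadjusted p under 0.05 and DESeq2 called 5.49%. The part of such shifts in the results below was not tested, and in whole embryos fewer cells of a type and less RNA per cell cannot be told apart.

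Embryos given the srsf5a morpholino had more RNA of cdkn1a, phlda3, mdm2 and ccng1 than embryos given the control morpholino. These 4 of the 9 tested genes passed an adjusted p of 0.05 over all genes in edgeR's quasi-likelihood test, all upward and none downward. Among all 19917 genes tested 1.98% were called, 1.22% higher and 0.768% lower. The rise was 4.82-fold for cdkn1a and between 1.67-fold and 2.15-fold for the other 3 genes. The remaining genes, sesn1, sesn3, zmat3, bbc3 and tp53inp1, did not pass the test and had values on either side of 0.

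In all, both srsf5a-morpholino libraries lay above both controls for 6 of the 9 genes and below both for 2, and the libraries overlapped for zmat3. Over all tested genes the corresponding shares were 26.1% above and 26.3% below. The median log2 fold change was 0.74 for the 9 genes and 0.00027 for all tested genes. Since these genes were chosen with earlier results known, such counts describe them and are no test of the pathway.

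**Figure D1:**
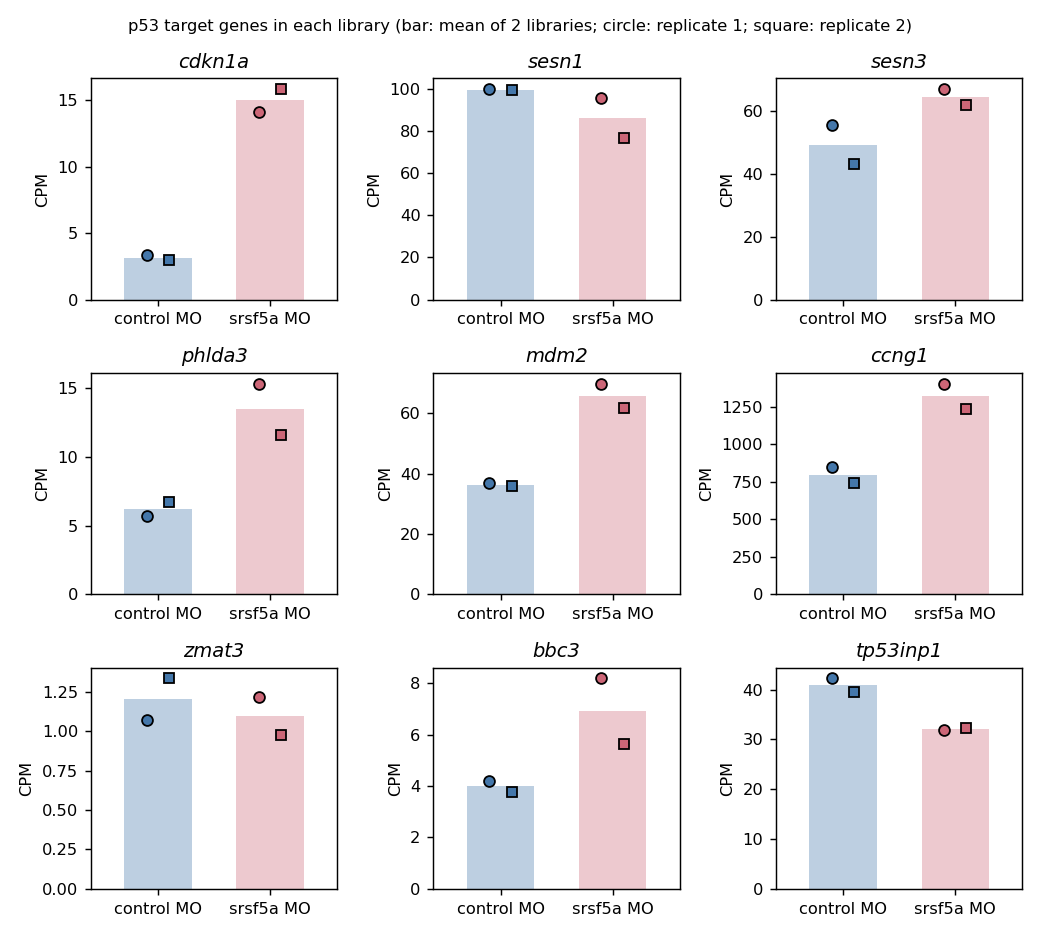
Level of each of the 9 genes in CPM (vertical axes, each starting at 0), with control morpholino in blue and srsf5a morpholino in red; bars are means of 2 libraries, circles replicate 1 and squares replicate 2. The groups are far apart for cdkn1a, at 3.34 and 2.94 against 14.1 and 15.8 CPM, and overlap for zmat3.

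Among the genes that restrain division and growth, cdkn1a (ENSDARG00000076554) moved the most. It encodes p21, which binds cyclin-dependent kinases and arrests the cell cycle. Control replicates 1 and 2 had 50 and 108 reads (3.34 and 2.94 CPM), and srsf5a-morpholino replicates 1 and 2 had 326 and 373 reads (14.1 and 15.8 CPM). The lowest library of the srsf5a-morpholino group was thus 4.23-fold above the highest control. The log2 fold change was 2.27 ± 0.16 (SE), with a 95% interval from 1.88 to 2.65 and an adjusted p of 0.00683. By size of rise, cdkn1a stood at position 54 among the 19917 tested genes.

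The gene phlda3 (ENSDARG00000037804), listed as PHLDA3, encodes a small pleckstrin-homology protein that in mammals competes with the kinase Akt for membrane lipids and so dampens growth signalling. It was measured at 5.67 and 6.73 CPM in control libraries and at 15.3 and 11.6 CPM under the srsf5a morpholino. The groups did not overlap, and the srsf5a-morpholino libraries differed from each other more than the controls did. The rise was 2.15-fold, with a 95% interval from 1.58-fold to 2.92-fold and an adjusted p of 0.0395. The call ended without control replicate 1 (adjusted p = 0.0922) and without control replicate 2 (log2 fold change 1.24, adjusted p = 0.119).

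The sestrins limit growth signalling through mTORC1 and protect against oxidative stress. Neither sestrin gene of the set passed the test. The level of sesn3 (ENSDARG00000015822) was 55.5 and 43.2 CPM in control libraries and 67.2 and 62.1 CPM under the srsf5a morpholino, above both controls in each library. Its log2 fold change of 0.40 ± 0.13 (SE) had an adjusted p of 0.165 and an interval from 0.08 to 0.71. The level of sesn1 (ENSDARG00000020693, listed as SESN1) was 99.9 and 99.2 CPM in control libraries and 95.7 and 76.8 CPM under the srsf5a morpholino, below both controls. Here the log2 fold change was -0.21 ± 0.12 (SE; adjusted p = 0.387), and the interval ran from -0.49 to 0.08. Both genes overlap other genes in the RefSeq annotation of the newer assembly GRCz12tu, and the strand setting of the counting is not given in the sources used here, so reads of such neighbours cannot be told apart from theirs.

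The sestrin gene outside the set, sesn2 (ENSDARG00000070012), is better known as a target of the amino acid stress factor ATF4 as well as of p53. It had 8.61 and 5.78 CPM in control libraries and 19.9 and 13.3 CPM under the srsf5a morpholino. Its log2 fold change of 1.24 ± 0.26 (SE) just missed the threshold in edgeR (adjusted p = 0.0589), and DESeq2, which called 2.84% of its tested genes higher and 2.65% lower, called it (1.22, adjusted p = 0.000776). The choice of sesn2 was made with its values in view.

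**Figure D2:**
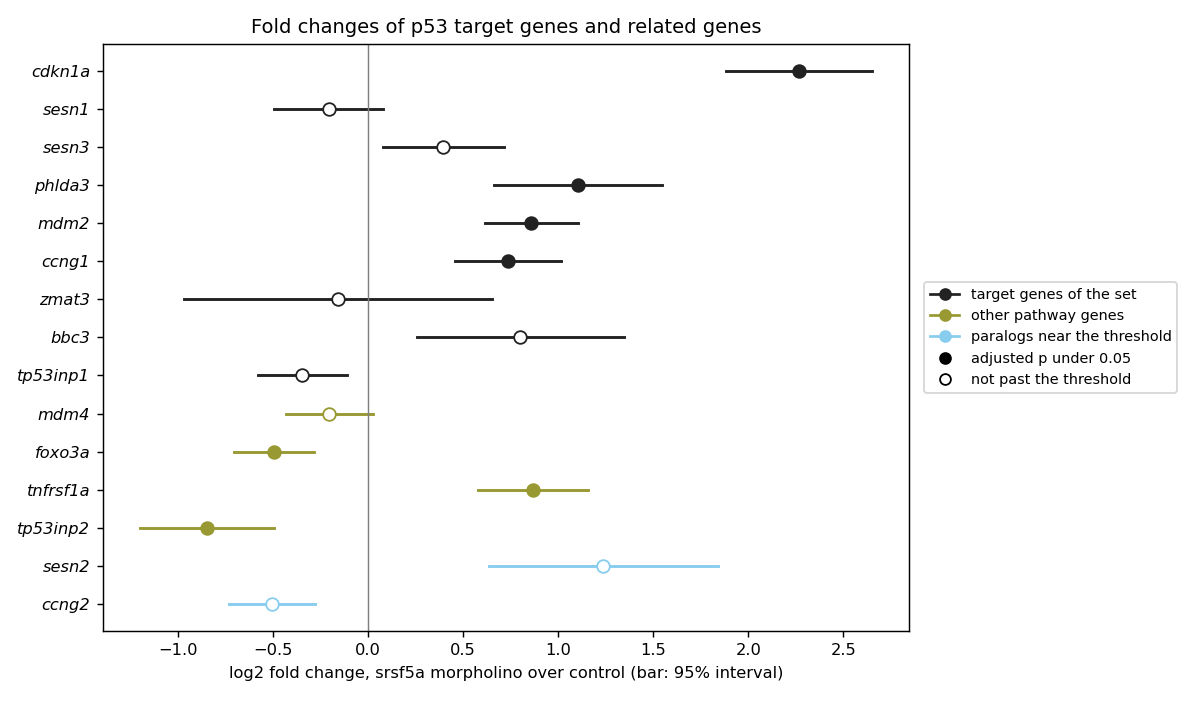
Log2 fold change of srsf5a morpholino over control (horizontal axis) for the 9 target genes (black), for mdm4 and 3 called genes of the pathway lists (olive) and for sesn2 and ccng2 (light blue), with 95% intervals from 2 libraries per group; filled points have an adjusted p under 0.05. The interval of cdkn1a, 1.88 to 2.65, lies above that of every other gene drawn.

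Of the 3 tested genes that act on p53 or around it, mdm2 and ccng1 rose and zmat3, at -0.16, did not pass the test. The gene mdm2 (ENSDARG00000033443) encodes the ubiquitin ligase that marks p53 for degradation. It stood at 36.8 and 35.8 CPM in control libraries and at 69.8 and 61.7 CPM under the srsf5a morpholino. The 2 controls were within 0.04 of each other on the log2 scale, and the lower library of the srsf5a-morpholino group exceeded the higher control 1.68-fold. The log2 fold change was 0.86 ± 0.10 (SE; adjusted p = 0.0189), and the call ended without control replicate 2 (0.84, adjusted p = 0.105).

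Cyclin G1, encoded by ccng1 (ENSDARG00000076667, listed as CCNG1), recruits a phosphatase to Mdm2 in mammals and so tunes p53. With 12666 to 32401 reads per library it was counted the most deeply of the 9. Its level was 846 and 740 CPM in control libraries and 1404 and 1235 CPM under the srsf5a morpholino, with no overlap. The change was 0.74 ± 0.12 on the log2 scale (SE; adjusted p = 0.0361). Without control replicate 1 (0.83, adjusted p = 0.0825) and without control replicate 2 (0.64, adjusted p = 0.217) the call ended.

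The paralog ccng2 (ENSDARG00000017602, listed as CCNG2), whose mammalian counterpart is known as a target of FOXO factors, had values on the other side of 0. It had 53.3 and 50.9 CPM in control libraries and 37.5 and 35.9 CPM under the srsf5a morpholino, and its log2 fold change of -0.51 ± 0.10 (SE) just missed the threshold (edgeR adjusted p = 0.0519). DESeq2 called it lower (-0.51, adjusted p = 0.013). This gene too was picked with its values in view, and the difference between the paralogs was not tested.

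The RNA-binding zinc finger gene zmat3 (ENSDARG00000080021, listed as ZMAT3), whose mammalian product regulates splicing and RNA stability downstream of p53, was the least deeply counted, with 16 and 49 reads in control libraries and 28 and 23 under the srsf5a morpholino. These are 1.07 and 1.34 CPM against 1.21 and 0.976 CPM, and the groups overlapped. The log2 fold change of -0.16 ± 0.34 (SE; adjusted p = 0.839) had an interval from -0.97 to 0.65, which spans changes from 0.511-fold to 1.57-fold that this depth cannot tell from none. Its sign turned without control replicate 2 (0.034). A non-coding RNA gene overlaps zmat3 in the RefSeq annotation of GRCz12tu.

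Both cell death targets had an unadjusted p under 0.05, as did 20.6% of all tested genes, and neither was called, by edgeR over all genes or by DESeq2. The gene bbc3 (ENSDARG00000069282) encodes Puma, a BH3-only protein that triggers the mitochondrial route of apoptosis. It had 4.21 and 3.79 CPM in control libraries and 8.19 and 5.65 CPM under the srsf5a morpholino. Both libraries lay above both controls, but they differed from each other by 0.54 on the log2 scale, the widest replicate gap among the 9 genes. The log2 fold change of 0.80 ± 0.23 (SE), with an interval from 0.25 to 1.34, had an adjusted p of 0.119. The size of this change lies between those of mdm2 and ccng1, which passed, and a missed threshold does not show that bbc3 was unaltered. The log2 fold change of bbc3 depended on the library dropped. It was 1.04 when srsf5a-morpholino replicate 2 was dropped and 0.51 when replicate 1 of that group was. Dropping control replicate 1 gave 0.86, and dropping control replicate 2 gave 0.72.

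The other death-related gene, tp53inp1 (ENSDARG00000028017, listed as TP53INP1), encodes a nuclear protein that promotes p53-dependent death and autophagy. It was at 42.3 and 39.5 CPM in control libraries and at 31.9 and 32.2 CPM under the srsf5a morpholino, below both controls. Its log2 fold change was -0.35 ± 0.10 (SE; adjusted p = 0.117), with an interval from -0.58 to -0.11, on the side opposite to cdkn1a and mdm2. None of the alternatives run made it a call, and here too a missed threshold does not show that the gene was unaltered.

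**Figure D3:**
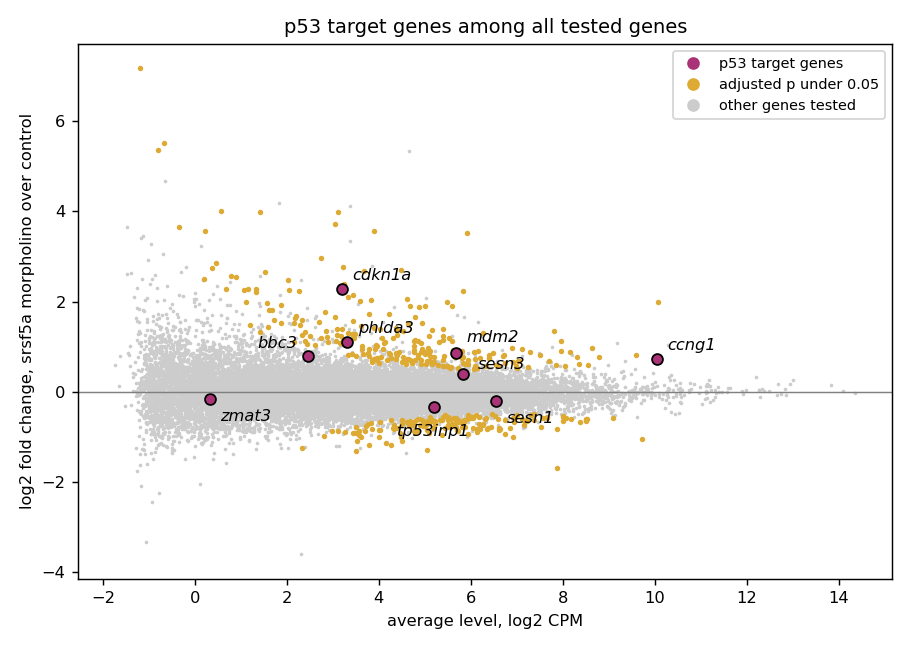
Log2 fold change of srsf5a morpholino over control (vertical axis) against average level in log2 CPM (horizontal axis) for the 19917 genes tested, with 2 libraries per group; gold points have an adjusted p under 0.05 and the 9 p53 target genes are named. ccng1 is among the more abundant genes, zmat3 among the scarce ones, and cdkn1a lies at 2.27.

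Within either group most of the 9 genes, but not all, were higher in replicate 1. Of the 9, 2 were higher in control replicate 2 than in control replicate 1, namely phlda3 and zmat3. In the srsf5a-morpholino group 2 were higher in replicate 2, namely cdkn1a and tp53inp1, while phlda3, mdm2, ccng1, bbc3, zmat3 and both sestrin genes were higher in replicate 1. The libraries of that group therefore ranked differently for cdkn1a than for the other called genes, but the gap for cdkn1a was only 0.16 on the log2 scale. For tp53inp1 it was 0.012. The same counts over all tested genes are not given here.

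**Figure D4:**
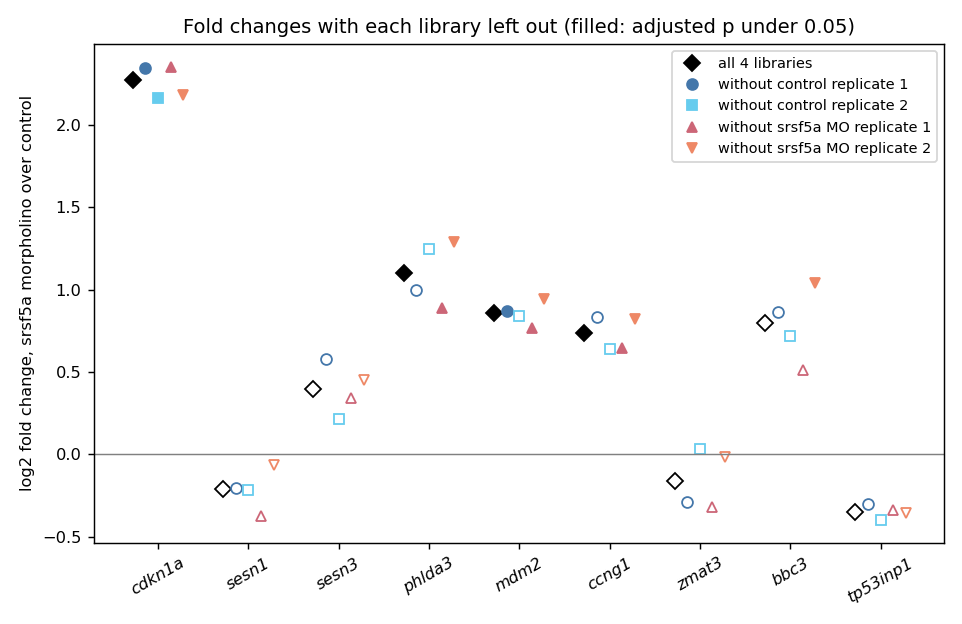
Log2 fold change of each of the 9 genes (vertical axis) with all 4 libraries and with each library left out in turn; filled points have an adjusted p under 0.05. cdkn1a is filled in all 5 fits, between 2.16 and 2.35 with a library left out, whereas phlda3 and ccng1 lose the call without either control and mdm2 without control replicate 2.

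The authors' deposited table gives the same 4 genes an adjusted p under 0.05, with a log2 fold change of 1.68 for cdkn1a, 0.82 for phlda3, 0.77 for mdm2 and 0.68 for ccng1. Of the genes that have an adjusted p in the authors' deposited table, 3.14% were called higher and 2.99% lower. In the deposited table the value for bbc3 is 0.52 (adjusted p = 0.146) and for tp53inp1 -0.32 (adjusted p = 0.17), neither of them a call. DESeq2 as run here gave 0.79 for bbc3 and -0.35 for tp53inp1. The gene zmat3 has no adjusted p in the authors' deposited table.

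Regulators of p53 were also read. MDM4 (ENSDARG00000057513), whose product inhibits p53 alongside Mdm2, had 71.6 and 78.4 CPM in control libraries and 66.6 and 63.7 CPM under the srsf5a morpholino (-0.20 ± 0.10 SE, adjusted p = 0.29).

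MDM4 was 1 of 14 tested regulators of p53 and relatives of it. None of these passed in edgeR, which called 1.98% of all tested genes, and DESeq2 called 0, beside 5.49%. At an unadjusted p under 0.05 there were 4, beside 20.6% of all tested genes. The median log2 fold change of the 14 genes was -0.16. The damage kinase gene ATM had 0.10, the related ATR 0.38 (adjusted p = 0.116) and the checkpoint kinase gene chek2 0.35 (adjusted p = 0.298).

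Other lists of p53 target and death genes gave calls in both directions, beside 1.98% of all tested genes called by edgeR and 5.49% by DESeq2. Of 29 tested genes for arrest and repair, edgeR called 0 higher and 1 lower, with a median of -0.06. At an unadjusted p under 0.05 there were 8, where all tested genes had a share of 20.6%. DESeq2, which gave no adjusted p for the RPRM genes, called 3. The lower one was foxo3a, a forkhead transcription factor of the insulin pathway, at 104 and 101 CPM in control libraries and 73.6 and 72.2 CPM under the srsf5a morpholino (-0.49 ± 0.09 SE, adjusted p = 0.045, and 0.0512 with no filter on low counts). The abundant antiproliferative gene BTG1 had -0.03, and the DNA repair genes DDB2 and XPC had 0.16 and -0.16. The growth arrest gene GADD45A had 0.87 ± 0.19 and missed the threshold (adjusted p = 0.07).

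Of 18 tested apoptosis genes, edgeR called 1 higher and 1 lower, with a median of 0.21. DESeq2 called 4 and gave no adjusted p for fas, DRAM1, bik and bcl2l11. At an unadjusted p under 0.05 there were 7, beside 20.6% of all tested genes. The higher one, tnfrsf1a, is a receptor for tumour necrosis factor that also acts in inflammation. It went from 14.6 ± 0.50 to 26.8 ± 2.46 CPM (SD, n = 2; 0.87 ± 0.12 SE, adjusted p = 0.0269). The lower one, tp53inp2, is related to tp53inp1 and is known for its role in autophagy. It went from 43.4 and 41.4 CPM to 20.1 and 27.0 CPM (-0.85 ± 0.15 SE, adjusted p = 0.0429). The calls of foxo3a, tnfrsf1a and tp53inp2 ended without either control library, with adjusted p between 0.0713 and 0.217.

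Other genes of the same list did not pass in edgeR. The p53-responsive junction gene PERP had 0.29 (adjusted p = 0.179) and BAX, which opens the mitochondrial membrane, had 0.20 (adjusted p = 0.313). The initiator caspase gene casp8 had 0.79 ± 0.15 and an adjusted p of 0.0524 in edgeR, while DESeq2 called it (adjusted p = 0.0474). On the other side of 0, TRIM8 (ENSDARG00000060729) had -0.44 ± 0.09 and an edgeR adjusted p of 0.0679. DESeq2 called that gene lower (adjusted p = 0.0163). The other TRIM8 gene (ENSDARG00000090512) had -0.34 (edgeR adjusted p = 0.168). The casp8 and TRIM8 genes are named here with those values in view.

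None of 9 survival genes of the BCL2 and inhibitor-of-apoptosis families passed in edgeR, which called 1.98% of all tested genes. DESeq2 called 0, beside 5.49% of all its tested genes, and gave no adjusted p for bcl2a and BCL2. At an unadjusted p under 0.05 there was 1, xiap (0.33), beside 20.6% of all tested genes. The median was -0.06, with BIRC2 at -0.10, BCL2L1 at -0.06, bcl2l10 at -0.0016 and bcl2a at -0.58. The genes xiap and bcl2a are named here with those values in view. Of the other cyclin-dependent kinase inhibitors 4 were tested and none passed in edgeR. At an unadjusted p under 0.05 there was 1, and their median was -0.52. DESeq2 called 0 and gave no adjusted p for CDKN2D. Lists this short cannot tell 0 calls from the shares over all genes. The most abundant of these inhibitors, cdkn1ca, had -0.49 (adjusted p = 0.177), CDKN1B (ENSDARG00000029018) 0.11, and CDKN2C and CDKN2D -0.55 each, where cdkn1a had 2.27.

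The genes whose profile over the 4 libraries was nearest to that of cdkn1a were of other kinds. Nearness was the Euclidean distance between log2 CPM values centred on each gene's mean, over 13459 named genes with at least 1 CPM on average. Closest were CARTPT, a neuropeptide precursor gene (distance 0.101), the complement gene c7b (0.189) and the chitinase gene chia.6 (0.209). In control replicates 1 and 2 they were scarce, at 0.534 and 0.518 CPM for CARTPT, 0.801 and 0.845 for c7b and 0.734 and 0.736 for chia.6. They were followed by FN1, for fibronectin (0.32), and the heat shock gene hspa1b (0.328). With 4 libraries such likeness reflects mainly a fold change of like size, 2.27 for CARTPT and chia.6 and 2.10 for hspa1b.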

How the data were processed

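Whole-embryo RNA from 4 libraries (2 per morpholino) was analysed; groups and replicate numbers come from sample titles. The submitters' processing notes name build Zv9 and the tools TopHat, HTSeq, Picard and DESeq2; versions, annotation and strand setting: not given in the sources used here. Deposited files, 1 per library, hold raw read counts per gene, and 29.0% to 34.2% of listed reads, set aside by the authors' counting, had several alignments. The authors' deposited comparison table holds a signal column (mean normalized counts), log2 fold changes, a score column (Wald statistic) and p-values, quoted only where named.

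Summary lines were left out. Differences were fitted by edgeR 4.0.16 under R 4.3.3 (TMM, filterByExpr with minimum count 10 and total 15, quasi-likelihood test, morpholino group as only term) and, as an alternative, DESeq2 1.42.0. Calls have a Benjamini-Hochberg adjusted p under 0.05 over all 19917 genes tested. CPM uses TMM-scaled totals; the limit that a count of 0 allows (3 counts) is 0.0817 to 0.2 CPM and covers counting error only. The SE is the log2 fold change divided by the square root of the F statistic, and the 95% interval uses the fit's degrees of freedom. The common biological coefficient of variation was 12.9%. Libraries of a group were not copies of one another: chi-square divided by its degrees of freedom was 8.72 for controls and 13.5 for the srsf5a morpholino, where sampling noise gives about 1. The fit was also run on simulated data, in which every gene had the common biological coefficient of variation. Spread that differs between genes or is shared by same-numbered libraries was left out, so that run does not vouch for the p-values given here.

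Symbols come from a supplied table naming 20603 identifiers. Target symbols were matched ignoring case. Of 91 other pathway symbols 78 had a row, some through capital symbols without the paralog letter. The members and lists were chosen with earlier results of these data known. Named genes are all members, srsf5a, mdm4, called genes of the lists, some of each list's most abundant genes and the 5 nearest to cdkn1a; GADD45A, ATM, ATR, chek2, BAX, DDB2, XPC and CDKN2D were named outside that rule after their values were seen, as were those so described in the results. Some genes that the rule and lists take are not reported here.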

Additional observations from a re-analysis of the deposited data

How the results depend on the processing

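Of the 9 genes, cdkn1a kept its call in all 11 alternatives (2.16 to 2.40 on the log2 scale). Normalization by RLE or upper quartile and filters on low counts changed neither the number of target genes called nor their direction. Leaving out 1 library gave 33 to 1410 called genes in place of 395 and 1 to 5 called target genes in place of 4, with a median log2 fold change of 0.51 to 0.83 in place of 0.74. All called genes numbered 175 and 33 when control replicate 1 or 2 was left out, and target genes 2 and 1. Leaving out srsf5a-morpholino replicate 1 or 2 instead gave 1156 and 1410 called genes, with 4 and 5 target genes; the cause was not tested. DESeq2 called 956 genes, 51.7% of them higher in place of 61.3%, and the same 4 target genes. With 1 library left out zmat3 ranged from -0.32 to 0.034, turning without control replicate 2. Libraries thinned to the shallowest total, added after seeing the data, ended the call of phlda3 (1.06, adjusted p = 0.0535). The labels do not say that replicate numbers pair libraries. With the replicate number as a block, 1582 genes and 6 target genes passed, sesn3 (0.40) and bbc3 (0.76) being added, and same-numbered deviations correlated at 0.393 across genes. With few reads, zmat3 is limited by depth.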
